A study of Mus musculus with 35 samples.

Results

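CD8+ T cells taken from mouse liver as tissue-resident memory cells (Trm) were compared with whole liver, using the 5 arrays titled as liver Trm and the 3 arrays titled as whole liver control, 8 of the 35 arrays of the series. The Trm arrays carry the replicate numbers 1, 2, 3, 5 and 6. The mice were healthy C57BL/6 females of wild-type genotype, 8 to 16 weeks old, with no transgene or drug in the labels. For Trm, dissociated liver was spun on a 40% to 80% Percoll gradient and cells were selected magnetically, first by CD8b and then by CD103, an integrin chain that binds E-cadherin. Whole liver was dissociated and no cells were isolated from it. Effector memory CD8+ T cells from blood (Tem, 6 arrays), selected by CD8b and then depleted to leave non-naive cells, are set beside the liver values, as are Trm and whole organ of lung (6 and 3 arrays) and small intestine (6 and 3). The labels do not tie single arrays to animals, so each p-value reflects only the variation among these samples, which may be technical, and the number of arrays limits the precision.

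Resident memory T cells stay in a tissue after an immune response and can act there without re-entering the blood, and CD69, CXCR6 and low levels of the exit receptor S1PR1 are commonly used to recognise them. The liver consists mostly of hepatocytes, which secrete most plasma proteins, detoxify drugs through cytochromes P450 and dispose of ammonia through the urea cycle. Between the hepatocyte plates run sinusoids lined by fenestrated endothelium and patrolled by Kupffer cells, the resident macrophages, and liver lymphocytes sit within them. In bulk RNA of this kind, fewer cells of a type and less RNA per cell cannot be told apart.

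Levels are log2 signals minus the array's 75th percentile, taken over probes above background on all arrays, so that a level of 0 is that of a bright probe. Levels of different genes are not on a common scale. Of 20886 genes with a named probe, 10636 passed the filter on dim probes and were tested. Between 12.2% and 26.4% of probes were well above background on the Trm arrays, against 27.5%, 64.7% and 27.4% in whole liver. Whole liver 2 stood apart, with rank correlations across probes of 0.70 and 0.76 with whole liver 1 and 3, against 0.93 between those (probes are not independent replicates), and Trm 3 had the lowest share. Sorted and whole-organ arrays lay on different slides and were scanned on different days, so slide and scan day cannot be told apart from the step from sorted cells to whole organ. Probes not above background on any array had a median difference of 0.63, whereas the median over the genes tested was -0.33.

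The sequences below are the starts of genes from the hepatocyte secreted protein list and the T cell list. They are shown as examples that hold the motifs whose shares differ most between these lists, and were chosen after the matches were seen. The genes encode albumin, the main hepatocyte product, and the epsilon and delta chains of the CD3 complex carried by T cells. The difference of albumin itself did not pass the test in the main fit. Each runs from 250 bases before to 50 bases after the RefSeq start (build GRCm38.p6), in the direction of the gene. Capitals mark matches to the motifs searched, on both strands: the HNF1 element GTTAAT, an HNF4 type element CAAAGTCC, the ETS core AGGAAGT, the RUNX core TGTGGTT, the TATA box TATAAA and the CCAAT box CCAAT.
Alb, chr5:90460620-90460919, plus strand: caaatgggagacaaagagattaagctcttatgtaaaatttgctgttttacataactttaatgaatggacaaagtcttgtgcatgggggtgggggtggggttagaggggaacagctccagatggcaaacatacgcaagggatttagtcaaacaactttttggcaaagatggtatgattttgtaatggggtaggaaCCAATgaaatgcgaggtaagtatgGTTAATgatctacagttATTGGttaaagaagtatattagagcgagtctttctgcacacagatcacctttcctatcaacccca
Cd3e, chr9:45009562-45009861, minus strand: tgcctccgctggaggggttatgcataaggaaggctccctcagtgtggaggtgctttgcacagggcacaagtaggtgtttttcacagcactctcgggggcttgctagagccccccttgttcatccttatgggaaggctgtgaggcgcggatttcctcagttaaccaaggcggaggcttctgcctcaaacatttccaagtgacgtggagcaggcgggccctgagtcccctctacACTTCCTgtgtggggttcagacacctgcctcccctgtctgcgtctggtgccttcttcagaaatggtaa
Cd3d, chr9:44981536-44981835, plus strand: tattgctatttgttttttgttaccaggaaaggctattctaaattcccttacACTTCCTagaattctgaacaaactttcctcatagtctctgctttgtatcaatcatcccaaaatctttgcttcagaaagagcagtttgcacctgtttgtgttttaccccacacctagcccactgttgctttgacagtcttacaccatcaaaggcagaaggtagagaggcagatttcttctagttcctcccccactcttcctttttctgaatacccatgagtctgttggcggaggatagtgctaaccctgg
GTTAAT was present in 35.3% of the 34 windows matched to the hepatocyte secreted protein list (31 genes), in none of the 25 windows of the T cell list (20 genes) and in 7.1% of all 32851 windows. AGGAAGT was present in 32.0% of the T cell windows, in none of the hepatocyte windows and in 9.35% of all. TATAAA was present in 23.5% of the hepatocyte and 8.0% of the T cell windows, against 13.6% of all, and CCAAT in 35.3% and 16.0%, against 37.4%. CAAAGTCC went the other way, being present in none of the hepatocyte and 4.0% of the T cell windows, against 1.42% of all, and TGTGGTT was present in 2.94%, 8.0% and 5.27%. Not every window of a list held its motif: that of Ahsg had no GTTAAT, that of Cd8a only CAAAGTCC, and that of Cd3g none of the 6 motifs. These are matches of letters, not measured binding sites.

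Liver Trm and whole liver differed over much of the transcriptome, more often downward. At an adjusted p below 0.05 (limma, Benjamini-Hochberg over all genes tested), 907 genes were higher in liver Trm (8.53%) and 2524 were lower (23.7%), together 32.3%. With a group that was above background on no array held at its detection limit (the lowest signal well above background on each array, or the gene's own where higher), 482 of these were higher and 1398 lower by at least 4-fold, and 96 and 355 by at least 16-fold. Among the higher genes, 327 were above background on no whole-liver array, and among the lower genes, 777 on no Trm array. All 5 Trm arrays lay above all 3 whole-liver arrays for 1065 genes (10.0%) and below them for 3139 (29.5%). The share of higher genes among those called depended on the scaling: it was 26.4% here, 40.1% under quantile normalization and 42.8% with the 75th percentile over all probes, where the median over all genes moved from -0.33 to -0.01 and 0.08.

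The T cell receptor complex and the CD8 coreceptor were higher in liver Trm. Of 27 genes of this list tested, 20 were higher and none was lower, with a median difference of 3.62 on the log2 scale. Cd8a, the alpha chain of the coreceptor, had levels of -0.87, -0.75, -2.56, -2.63 and -1.97 on Trm arrays 1, 2, 3, 5 and 6 and of -8.99, -8.34 and -8.59 in whole liver, where no array was above background. The groups did not overlap, and the difference was at least 28.1-fold (adjusted p = 1.19e-09, limma). Such a bound sets the brighter group's mean against the lowest signal well above background on the dimmer arrays, or the gene's own signal there where that is higher. Where some array of the dimmer group was above background, the fitted difference is given instead. It then includes any signals of that group that were not above background. Cd8b1, the chain used for the first selection, was at least 19.6-fold higher (adjusted p = 8.5e-11, limma).

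Cd3e, a signalling chain of the receptor, had levels of -0.21, 0.24, -1.30, -1.50 and -0.37 in Trm and of -8.87, -5.00 and -7.53 in whole liver. Whole liver 2 was the highest of the whole-liver arrays, and the only one above background, and still lay below every Trm array. The difference was 6.51 ± 0.73 (log2 difference ± SE, n = 5 and 3 here and below; adjusted p = 2.26e-08, limma). Thy1, a surface glycoprotein of mouse T cells, was higher by 7.70 ± 0.84, Cd2, an adhesion molecule, by 7.32 ± 0.56, and the costimulatory receptor gene Cd28 by at least 25.6-fold. In blood Tem the mean level of Cd3e was 0.26 ± 0.32 (SD, n = 6), and Trm minus Tem was -0.89 ± 0.61, which did not pass the test (adjusted p = 0.226, limma). Cd8a and Cd8b1 were lower in Trm than in Tem, by -1.44 ± 0.55 and -1.57 ± 0.45. Cd4, which marks the other main T cell lineage, did not pass the test (difference 0.34 ± 1.00), with overlapping groups. No probe was matched to Itgae, which encodes CD103, so the second selection could not be checked.

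**Figure D1:**
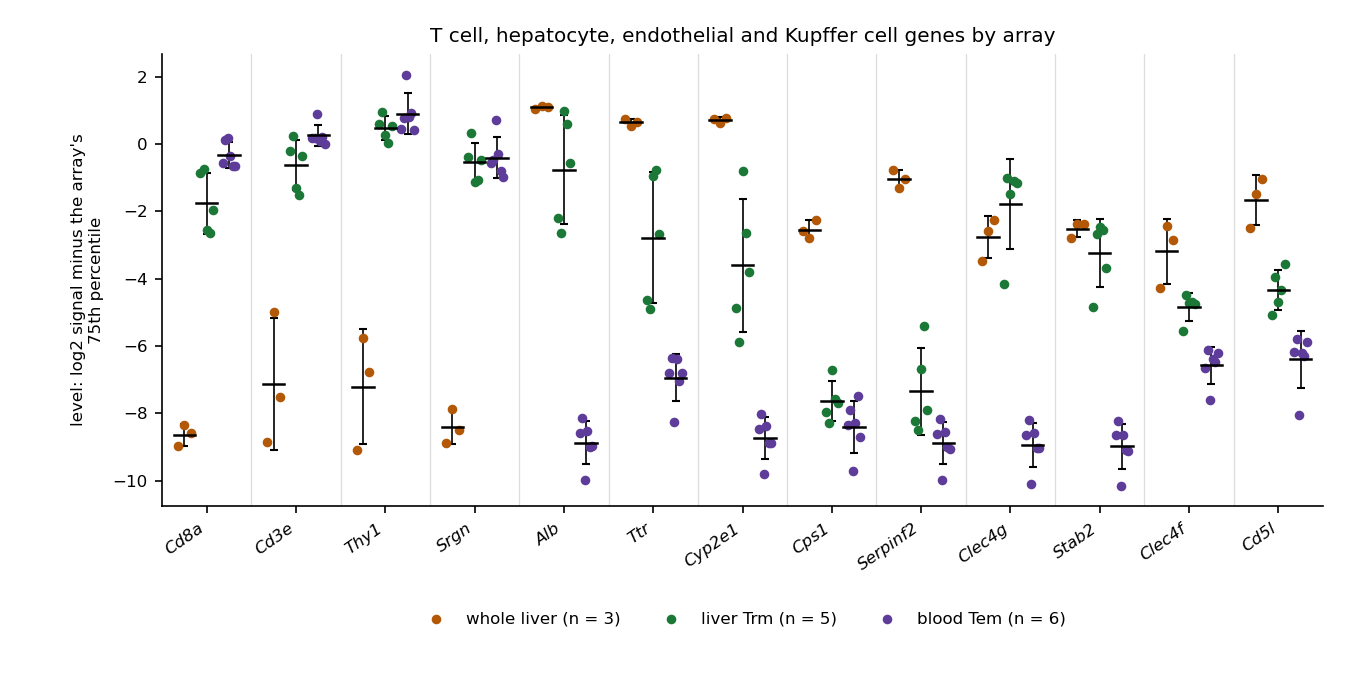
Level of 13 genes on each array (log2 signal minus the array's 75th percentile; points are arrays, bars the mean, error bars the SD; whole liver n = 3, liver Trm n = 5, blood Tem n = 6). The T cell genes were bright in both sorted groups and dim in whole liver, while Alb spread from -2.63 to 0.99 over the Trm arrays and had a mean of -8.87 in blood Tem.

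Genes of the leukocyte cytoskeleton and of homing moved the same way. In the cytoskeleton list, 18 of 23 were higher and none was lower (median 2.87). Coro1a, which binds actin in leukocytes, was higher by 6.18 ± 0.64, Arhgdib, an inhibitor of small GTPases, by 5.66 ± 0.53, and Rac2, a GTPase of blood cells, by 5.65 ± 0.77. In the homing and adhesion list, 10 of 17 were higher and none was lower (median 3.37), including Ccr9, the receptor for the gut chemokine CCL25, by 5.86 ± 0.73. Srgn, the proteoglycan that packs granule contents, was at least 65.2-fold higher, Arhgap45 at least 64.9-fold and the tetraspanin gene Cd37 at least 43.1-fold.

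Genes of naive, central memory and recirculating lymphocytes held some of the largest differences. Of 27 tested, 15 were higher in liver Trm and 1 was lower (median 1.95). Ccr7, the receptor that guides lymphocytes into lymph nodes, had levels of 0.94, 1.26, 1.12, 0.93 and 1.22 in Trm and of -8.97, -8.38 and -8.56 in whole liver. The 5 Trm arrays lay close together, and the difference was at least 203-fold (adjusted p = 7.41e-11, limma). S1pr1, the receptor for exit into blood and lymph, had levels of -1.57, -0.75, -2.66, -2.62 and -2.38 against -6.88, -8.13 and -7.67, at least 23.1-fold higher. Klf2, a transcription factor that drives S1pr1, had levels of 1.07, 1.29, 0.13, 0.19 and 0.62 against -4.95, -4.04 and -4.89, a difference of 5.28 ± 0.79. Il7r, the interleukin-7 receptor, was at least 14.6-fold higher and Ms4a4b, a T cell membrane protein, at least 37.2-fold. The lower member was Igfbp4 (-1.40 ± 0.46), a call lost in 6 alternatives, among them those without liver Trm 2 and without whole liver 2.

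The same arrays were set against blood Tem in the same fit, where 12.1% of genes were higher and 23.4% lower in liver Trm. Tem means were 0.79 ± 1.02 for Ccr7, -1.46 ± 0.85 for S1pr1 and 0.49 ± 0.50 for Klf2 (SD, n = 6). Trm minus Tem was 0.30 ± 0.67, -0.54 ± 0.47 and 0.17 ± 0.66 (SE) in that order, and none passed the test, which does not show that the levels are alike. Klrg1 and Cx3cr1, genes of circulating effector cells, went the other way: no Trm array was above background for either, and they were at least 8.74-fold and 17.7-fold lower in Trm than in Tem (adjusted p = 7.47e-08 and 2.37e-06, limma). Neither differed between Trm and whole liver by the test.

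**Figure D2:**
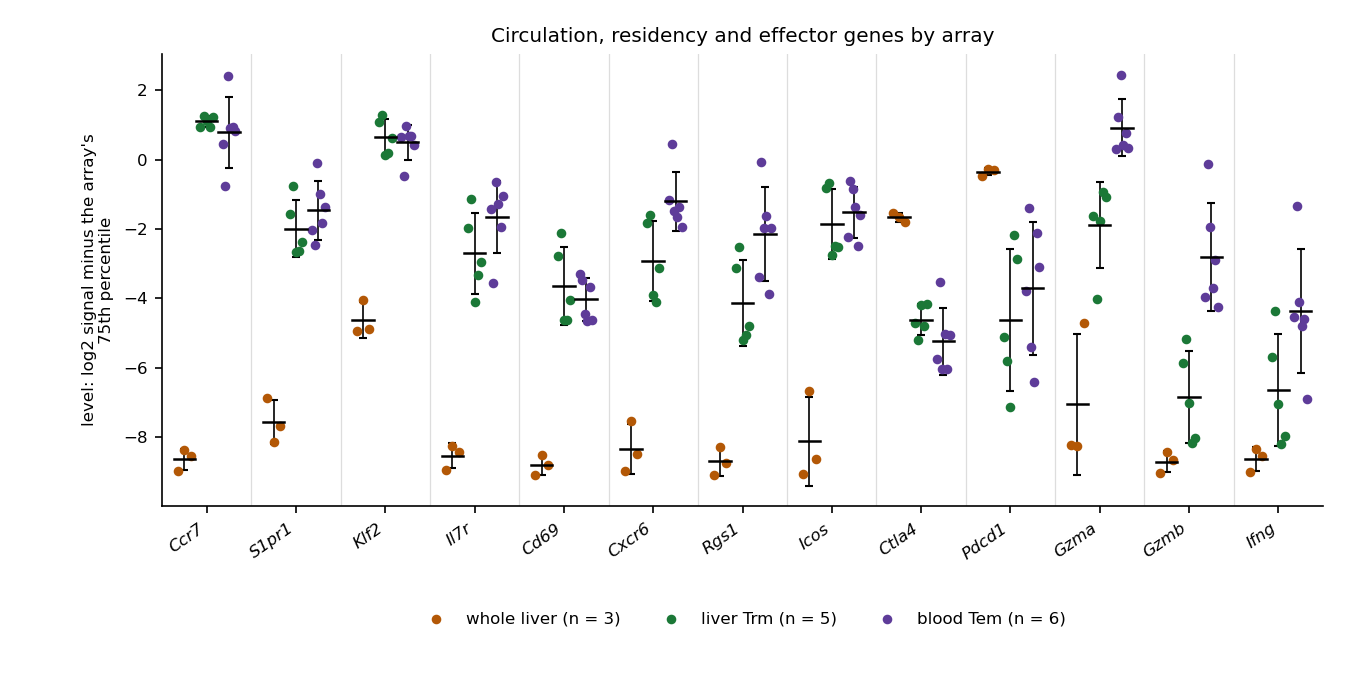
Level of 13 genes of T cell state on each array (log2 signal minus the array's 75th percentile; points are arrays, bars the mean, error bars the SD). Ccr7, S1pr1 and Klf2 were bright in both sorted groups, Ctla4 and Pdcd1 were highest in whole liver, and Gzmb and Ifng were above background on 2 of the 5 Trm arrays.

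Genes associated with residency went in both directions. Of 25 tested, 8 were higher, 6 lower and 11 not called (median 0.89, or 0.34 with genes below background in 1 group placed at their bound). Over all genes 8.53% were higher and 23.7% lower, and the count of lower members is near that share. Under quantile normalization or with the 75th percentile over all probes, 11 were higher and 4 lower, and with array weights 14 and 7. Cd69, an activation antigen that holds cells in tissue by removing S1PR1 from the surface, had levels of -2.78, -2.13, -4.61, -4.62 and -4.05 in Trm and of -9.10, -8.50 and -8.80 in whole liver, at least 7.62-fold higher (adjusted p = 3.15e-08, limma). Trm arrays 1 and 2 were the highest. Cxcr6, a chemokine receptor of liver T cells, was at least 12.6-fold higher, Nr4a1, a nuclear receptor induced by antigen receptor signals, at least 42.8-fold, and Icos, a costimulatory receptor, at least 26.2-fold. The lower members included Chn2, Ctla4, Cish, Ahr and Litaf. Against Tem, Cd69 in liver Trm differed by 0.39 ± 0.49, which did not pass the test, and Cxcr6 by -1.71 ± 0.55 (adjusted p = 0.0203, limma).

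Cytotoxic granule genes were mostly higher. In the granule list 8 of 14 were higher and none was lower (median 2.57, or 1.55 with genes at their bound). Nkg7, a granule membrane protein, was higher by 7.20 ± 0.85 and Cd7, a lymphocyte surface protein, by 5.91 ± 0.56. Gzma, which encodes granzyme A, had levels of -1.62, -4.03, -1.78, -0.94 and -1.08 in Trm and of -8.22, -8.25 and -4.70 in whole liver (5.17 ± 1.10, adjusted p = 0.000338, limma). Trm 2, the brightest Trm array for Cd8a, was the dimmest for Gzma. Gzmb, granzyme B, and Ifng, interferon gamma, were each above background on 2 Trm arrays and no whole-liver array, and neither passed the test. Both were lower in Trm than in Tem, by -4.04 ± 0.87 and -2.28 ± 0.84. Of 13 cytokine and chemokine genes, Ccl5 (4.98 ± 0.81) and Ltb (2.38 ± 0.51) were higher and Ccl9, a chemokine of myeloid cells, was lower (-3.77 ± 1.00). These 3 of 13 stand beside 32.3% over all genes, and 5 of the 13 were higher under quantile normalization or with the 75th percentile over all probes, and 6 without whole liver 2.

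Of 15 checkpoint and costimulation genes, 6 were higher and 3 lower, beside 8.53% and 23.7% over all genes. The count of lower members is near that share. Tnfrsf18, which encodes GITR, was at least 7.25-fold higher. Pdcd1, which encodes the inhibitory receptor PD-1, had levels of -5.12, -5.80, -7.13, -2.19 and -2.88 in Trm and of -0.47, -0.28 and -0.32 in whole liver, a difference of -4.27 ± 0.99 (adjusted p = 0.000911, limma). Ctla4, another inhibitory receptor, had levels of -4.71, -5.20, -4.19, -4.78 and -4.18 against -1.54, -1.64 and -1.81 (-2.95 ± 0.64). Both probes were brighter in every whole-liver array than on any Trm array, and the whole-liver arrays lay close together, although Cd3e was dim and spread in those arrays. The same order was seen for the dendritic cell receptor gene Xcr1 (-4.86 ± 1.32) and the transcription factor genes Gata3 (-2.65 ± 0.69) and Nr4a2 (-3.34 ± 0.83), the last not called when the gene's probes were averaged. Whether these probes read those transcripts alone in liver RNA was not tested.

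Early response and cell cycle genes were partly higher. Of 39 immediate early and stress genes, 17 were higher and 1, Nr4a2, was lower (median 1.71, or 1.35 with genes at their bound). Tnfaip3, an inhibitor of NF-kappaB signalling, was at least 53.2-fold higher and Rgs2, a regulator of G protein signalling, by 6.23 ± 0.77. The heat shock genes Hspa8, Hsph1, Dnaja1, Dnajb1 and Hspa1a were not called. Of 20 proliferation genes, 8 were higher and none was lower. Mcm6, a subunit of the replicative helicase, was higher by 3.02 ± 0.68, Birc5, a regulator of chromosome segregation, by 2.41 ± 0.68 and Mki67 by at least 2.47-fold, a call lost in 3 alternatives.

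Hepatocyte genes were lower in liver Trm, yet the Trm arrays retained a part of their signal. Of 40 secreted plasma protein genes, 33 were lower and none was higher, with a median of -3.96 (-3.59 with genes at their bound). Serpinf2, which encodes the plasmin inhibitor alpha2-antiplasmin, had levels of -8.23, -8.51, -6.68, -5.40 and -7.91 in Trm and of -0.78, -1.31 and -1.05 in whole liver, a difference of -6.30 ± 0.50 (adjusted p = 2.78e-11, limma). On Trm 1, 2, 3 and 6 its level lay below the array's lowest signal well above background, so the size of that difference is uncertain. Aass, Abcg5 and C1s2, given below, were each above background on 1 Trm array only. Serpind1, heparin cofactor II, was at least 15.8-fold lower and Cp, the copper oxidase ceruloplasmin, at least 27.2-fold. Ttr, the thyroxine carrier transthyretin, had levels of -4.62, -4.89, -0.96, -0.78 and -2.67 in Trm and of 0.74, 0.53 and 0.67 in whole liver (-3.43 ± 0.63, adjusted p = 5.5e-05, limma).

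The 7 secreted protein genes that were not called were Alb, Ahsg, Trf, Serpina1c, Hp, C3 and Rbp4, which encode abundant plasma proteins. Under quantile normalization 36 of the 40 were lower, and with the 75th percentile over all probes 32. Alb was called lower in 5 of 22 alternatives. Alb had levels of -2.19, -2.63, 0.99, 0.59 and -0.56 in Trm and of 1.04, 1.14 and 1.11 in whole liver, a difference of -1.85 ± 0.78 that did not pass the test (adjusted p = 0.0687, limma), although no Trm array reached the whole-liver arrays. Serpina1c, an alpha-1-antitrypsin gene, had levels of -0.74, -0.82, 1.85, 1.49 and 0.43 against 0.93, 1.11 and 1.04, so that Trm 3 and 5 lay above whole liver and the others below. In blood Tem the mean of Alb was -8.87 ± 0.63 (SD, n = 6) with no array above background, and Alb was at least 66.5-fold higher in liver Trm (adjusted p = 2e-11, limma).

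The Trm arrays differed among themselves in the hepatocyte and the T cell signal. The median over the 40 secreted protein genes, minus the whole-liver mean, was -5.10, -5.44, -2.18, -2.33 and -3.62 on Trm arrays 1, 2, 3, 5 and 6, and minus the Tem mean it was 3.13, 2.56, 5.97, 5.44 and 4.22. The median over the T cell receptor list, minus the whole-liver mean, was 4.93, 5.33, 3.13, 3.48 and 3.28. Trm 1 and 2 held the most T cell and the least hepatocyte signal. Of the 40 secreted protein genes, 21 were above background on all 5 Trm arrays and none on all 6 Tem arrays. The part of this hepatocyte signal in the other differences was not tested.

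**Figure D3:**
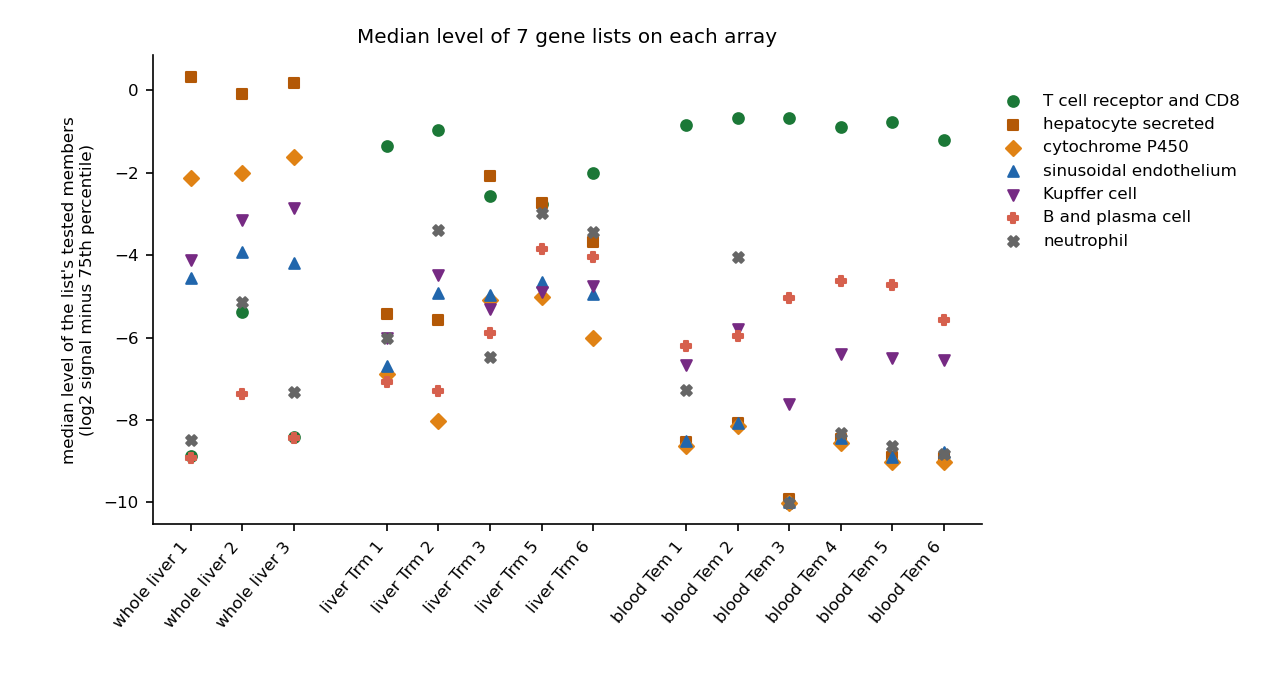
Median level of the tested members of 7 gene lists on each array of whole liver, liver Trm and blood Tem (log2 signal minus the array's 75th percentile). Lists are to be followed across arrays and not compared with each other: the hepatocyte secreted protein list lay between -5.57 and -2.09 on the Trm arrays, below every whole-liver array and above every Tem array.

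Lipid export genes showed a similar split. Of 18, 12 were lower and none was higher (median -3.50, or -2.66 with genes at their bound). Apob, the structural protein of very low density lipoprotein, had levels of -8.48, -8.76, -6.13, -6.68 and -8.19 in Trm and of -0.43, -1.05 and -0.92 in whole liver, at least 34.1-fold lower (adjusted p = 4.62e-12, limma). Apof, a lipid transfer inhibitor, differed by -6.10 ± 0.67 and Scd1, a fatty acid desaturase, by -5.83 ± 0.97. Apoe, Apoa2, Apoc1, Apoc3 and Fabp1, which were bright on all Trm arrays, were not called, with differences from -1.67 to -0.77.

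Enzymes of detoxification and nitrogen disposal were lower nearly throughout. Of 21 cytochrome P450 genes, 19 were lower (median -4.32, or -3.77 with genes at their bound), with Cyp2c54 at -6.27 ± 0.57, Cyp2c23 at -6.05 ± 0.71 and Cyp2c70 at -5.89 ± 0.87, and Cyp39a1 and Cyp8b1 were not called. Cyp2e1, which oxidises ethanol, had levels of -4.88, -5.87, -0.80, -2.64 and -3.80 in Trm and of 0.75, 0.64 and 0.79 in whole liver (-4.32 ± 0.73, adjusted p = 1.61e-05, limma). Trm 3 was the highest Trm array and still lay below whole liver. Of 29 genes of the urea cycle and amino acid breakdown, 28 were lower (median -3.57). Cps1, the entry enzyme of the urea cycle, was above background on no Trm array and at least 10.2-fold lower. Otc, the next enzyme, had levels of -8.23, -8.54, -4.98, -2.02 and -7.95 against -1.53, -1.60 and -1.51 (-4.80 ± 0.82), with Trm 5 near whole liver. Aass, of lysine breakdown, differed by -5.17 ± 0.63.

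Central metabolism and transport followed. In the glucose and ketone list, 14 of 17 were lower, among them Slc2a2, the hepatocyte glucose transporter (at least 8.15-fold), and G6pc, which releases free glucose (at least 7.28-fold). In the peroxisome and fatty acid oxidation list, 22 of 23 were lower, including Ppara, a fatty acid sensing nuclear receptor (-4.96 ± 0.49), and Acox2 (-4.66 ± 0.67). Respiratory chain genes, which T cells also use, differed less: 3 of 25 were lower (Ndufs1, Cyc1 and Sdha), with a median of -0.62. For 15 of the 25, all 5 Trm arrays lay below all 3 whole-liver arrays, against 29.5% of all genes tested. Over all genes 23.7% were called lower, a larger share than in this list. The count of lower members moved both ways. None was lower under quantile normalization or without liver Trm 6 or without whole liver 3. With the 75th percentile over all probes or a replicate block, or without liver Trm 3 or whole liver 1, 1 was lower. In the fit on only the 8 liver arrays, 10 of 24 were lower. With array weights, 13 of 25 were lower and 1 was higher. In the bile acid and transport list, 14 of 17 were lower, with Abcb11, the bile salt export pump, at -5.70 ± 0.58, the sterol transporter gene Abcg5 at -5.30 ± 0.52 and Nr1h4, the bile acid receptor, at -4.84 ± 0.65. Slc10a1, the bile acid uptake carrier of hepatocytes, was the 1 higher member: its probe read 1.25, 1.75, 2.28, 2.23 and 1.93 in Trm, 0.93, 0.78 and 0.94 in whole liver and 1.51 ± 0.42 (SD, n = 6) in blood Tem. That difference of 1.01 ± 0.34 lost its call in 5 alternatives.

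Hepatocytes differ along the sinusoid, and genes of both ends were lower. Of 17 periportal genes 12 were lower (median -2.75), and of 18 pericentral genes 17 (median -4.16, or -3.69 with genes at their bound). The difference between these lists was not tested. Periportal members included Uroc1 (-4.41 ± 0.73) and Hal (-4.34 ± 0.70), both of histidine breakdown, and Cyp2f2 (-3.77 ± 1.39), a call lost in 11 alternatives. Pericentral members included Gulo, of ascorbate synthesis (-5.71 ± 0.55), Lect2 (-5.39 ± 0.63) and Glul, glutamine synthetase (-3.54 ± 0.54). Outside the lists, Serpina6, the carrier of glucocorticoids, differed by -6.43 ± 0.87, C1s2 by -6.48 ± 0.98, Ugt2b34 by -6.31 ± 0.83 and Kng2 by -6.24 ± 0.51.

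**Figure D4:**
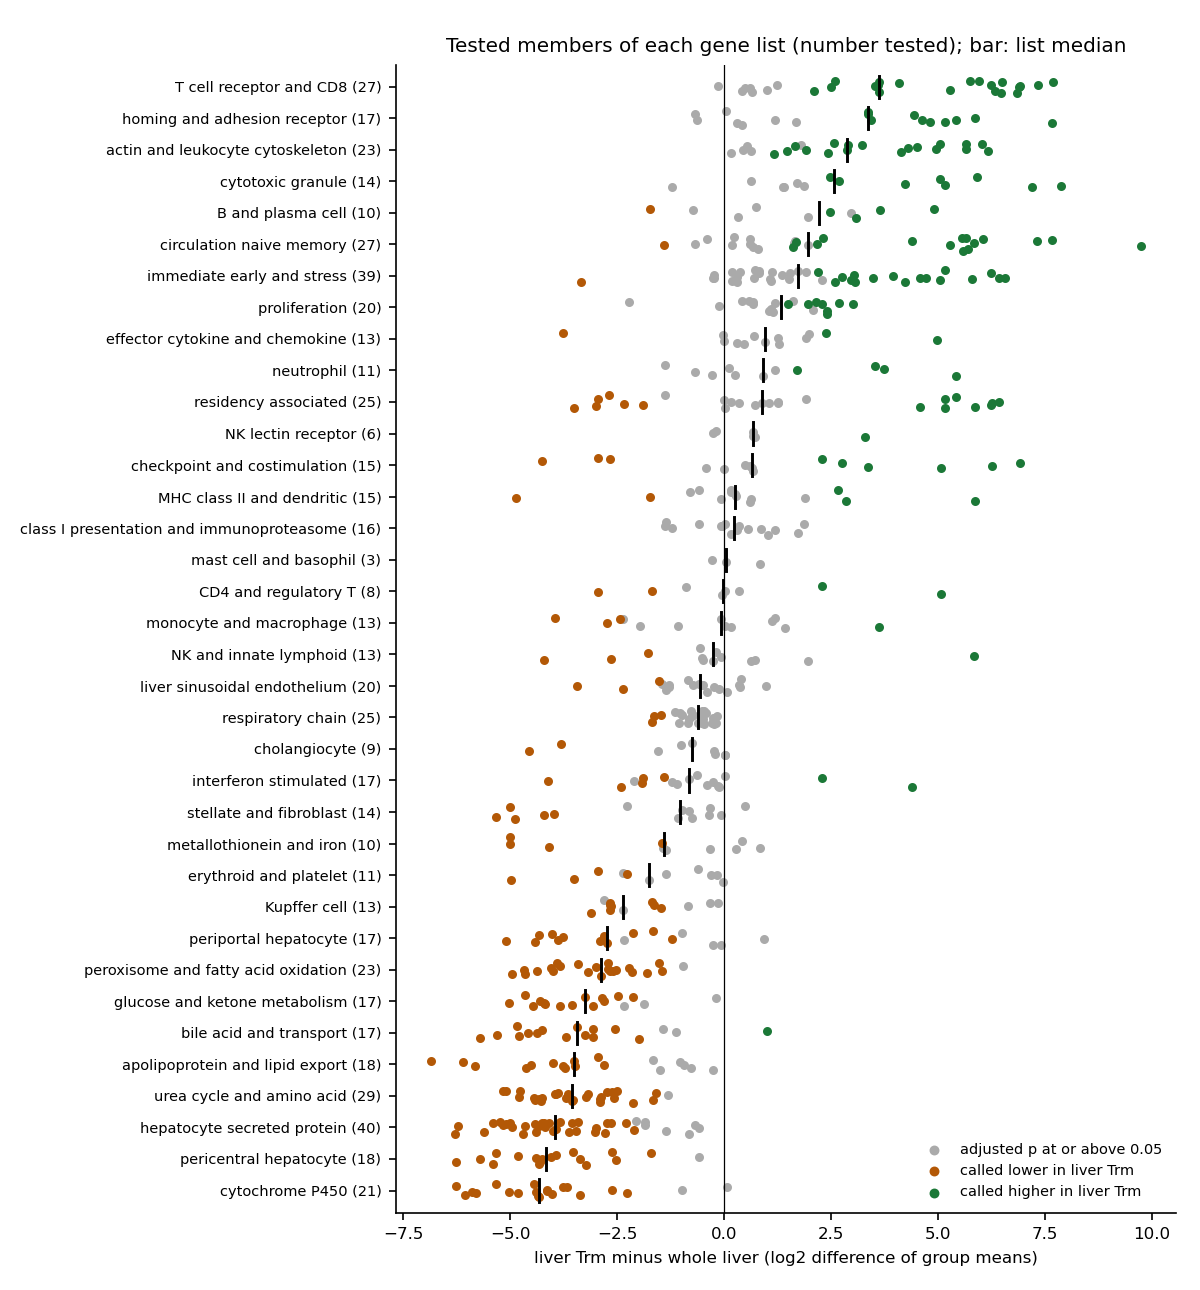
Liver Trm minus whole liver (log2 difference of group means) for every tested member of the gene lists, with the list median as a bar and colours for genes called higher or lower at an adjusted p below 0.05 or not called. The 27 T cell receptor genes had a median of 3.62, the 21 cytochrome P450 genes one of -4.32, and the 20 sinusoidal endothelium genes one of -0.55.

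Sinusoidal endothelium genes were mostly not called. Of 20 tested, 3 were lower and none was higher, with a median of -0.55 beside -0.33 over all genes. Clec4g, a lectin of this endothelium, had levels of -4.15, -1.00, -1.48, -1.10 and -1.16 in Trm and of -3.47, -2.57 and -2.25 in whole liver. Trm 1 lay below whole liver and the other 4 Trm arrays above it, and the difference of 0.99 ± 0.54 did not pass the test (adjusted p = 0.173, limma). Stab2, a hyaluronan scavenger receptor, had levels of -4.83, -2.67, -2.47, -2.54 and -3.70 against -2.78, -2.37 and -2.37 (-0.74 ± 0.48, not called). In Tem neither was above background on any array, with means of -8.94 ± 0.66 and -8.98 ± 0.66 (SD, n = 6), and they were at least 32.8-fold and 11.9-fold higher in liver Trm (adjusted p = 3.06e-14 and 5.94e-13, limma). The lower members were Esam (-3.43 ± 1.29), Plpp3 (-2.36 ± 0.91) and Gata4 (-1.52 ± 0.54), calls lost in 11, 13 and 9 alternatives. No member was lower with the 75th percentile over all probes or without liver Trm 1, liver Trm 3, whole liver 1 or whole liver 2, and 1 under quantile normalization, normexp background correction or a replicate block or without liver Trm 6. A single member was higher under quantile normalization, with the deposited log2 values, without liver Trm 1, or without whole liver 2 and liver Trm 3 together. With array weights, 2 were higher and 6 lower. Clec4g was called higher in 4 of 22 alternatives and Stab2 lower in 1. The part of endothelial RNA in the other differences was not tested.

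Kupffer cell genes were lower or not called. Of 13, 8 were lower and none was higher (median -2.36), and 5 were lower with the 75th percentile over all probes. Clec4f, a lectin of Kupffer cells, had levels of -5.55, -4.48, -4.74, -4.70 and -4.75 in Trm, all above background, and of -4.29, -2.43 and -2.85 in whole liver (-1.65 ± 0.41, adjusted p = 0.00187, limma), a call lost in 2 alternatives. Its mean in Trm exceeded that in Tem by 1.74 ± 0.34 (adjusted p = 0.000568, limma). Cd5l, a macrophage survival factor, differed by -2.66 ± 0.45, Marco, a scavenger receptor, by -2.67 ± 0.73, and Nr1h3, an oxysterol receptor, by -3.11 ± 0.52. Of 14 stellate cell and fibroblast genes 5 were lower, with Dcn, Col1a2 and Colec11 at least 9.50-, 11.9- and 10.2-fold lower and no Trm array above background. Of 9 bile duct genes 2 were lower (median -0.76, or 0 with genes at their bound), among them Prom1, by at least 8.46-fold. These counts stand beside 23.7% lower over all genes, and that of the bile duct list is near that share.

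Markers of other blood leukocytes were uneven over the Trm arrays. Of 11 neutrophil genes, 4 were higher and none was lower, and 2 were higher without whole liver 1 or without whole liver 3. S100a9, a subunit of calprotectin, had levels of -3.71, -0.61, -2.80, -0.68 and -0.81 in Trm, of -8.47, -5.63 and -7.31 in whole liver and a mean of -7.65 ± 3.03 (SD, n = 6) in Tem (5.42 ± 1.30 against whole liver, adjusted p = 0.00128, limma). S100a8, the other subunit, differed by 3.74 ± 1.25 and Camp, a granule peptide, by at least 3.32-fold, both calls lost in 2 alternatives. Trm 2, 5 and 6 were the highest arrays for all 3 genes. Of 10 B cell genes, 4 were higher and 1, Ebf1, was lower, and 2 were higher without liver Trm 5, liver Trm 6 or whole liver 1. Ebf1 lost its call in 5 alternatives: quantile normalization, the deposited log2 values, the 75th percentile over all probes, normexp background correction, and without whole liver 1. Ms4a1, which encodes CD20, had levels of -8.23, -8.54, -4.96, -3.10 and -2.76 in Trm, lowest on Trm 1 and 2, and no whole-liver array was above background. The median level of the B cell list ranged from -7.30 to -3.84 in Trm and from -8.93 to -7.36 in whole liver, and that of the neutrophil list from -6.46 to -2.98 and from -8.47 to -5.13. The part of these cells in the other differences was not tested.

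The counts of the remaining lists stand beside 32.3% called over all genes. Of 15 class II and dendritic cell genes, 3 were higher (Ccr9, Siglech and H2-Oa) and 2 lower (Xcr1 and Tcf4), and 5 were higher without whole liver 2, while 1 was lower without that array or without liver Trm 1, 5 or 6. Of 13 monocyte and macrophage genes, Itgam was higher (3.61 ± 0.61, not called when probes were averaged) and 3 were lower, with Fn1 at -3.96 ± 1.10. Of 13 natural killer and innate lymphoid genes, 1 was higher (Il7r) and 3 were lower, among them Gata3 and Zbtb16. In this list 2 were higher with the 75th percentile over all probes, normexp or a replicate block. That count was also 2 without liver Trm 3, liver Trm 6 or whole liver 2, or without liver Trm 3 and whole liver 2 together. With array weights, 4 were higher and 4 lower. Ncr1 was not called (-0.27 ± 0.52, with a sign that turned under other scalings). Of 6 natural killer lectin genes, Klrd1 was higher (at least 2.34-fold). Of 8 CD4 and regulatory T cell genes, Tnfrsf18 and Tnfrsf4 were higher and Ctla4 and Zbtb7b lower, and 1 was higher without whole liver 1 or without whole liver 3. Of 17 interferon-stimulated genes, 2 were higher, with Ifi27l2a at 4.40 ± 0.79, and 5 lower, with Ifi35 at -4.13 ± 0.57, and 2 were lower under quantile normalization, with the 75th percentile over all probes, with normexp, with a replicate block or without whole liver 3, and 3 without liver Trm 3, whole liver 1 or whole liver 2, while 1 was higher under quantile normalization or without liver Trm 2 or whole liver 2. Of 11 red cell and platelet genes, 4 were lower, including Hbb-bt (-4.98 ± 1.07) and Hba-a1 (-3.52 ± 1.00). Of 10 metallothionein and iron genes, 4 were lower, among them Tfr2, an iron sensor (-5.02 ± 0.71), and the iron hormone gene Hamp (-4.09 ± 0.57), and Mt2 was not called (-1.43 ± 1.01). Of 16 class I presentation genes none was called by limma here, and 3 were higher under quantile normalization and 1 or 2 without liver Trm 3, 5 or 6 or whole liver 2. In the fit on only the 8 liver arrays 3 were higher and 2 lower, and with array weights 5 and 4. Without liver Trm 2, 1 was lower. None of 3 mast cell genes was called.

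Setting the liver difference against those of the other organs asks which part of it recurs when other Trm are compared with their own organ. Sorted and whole-organ arrays of all 3 organs were split by slide and scan day alike, so an offset common to them cancels here. Against lung, 790 genes had a more positive difference in liver (7.43%) and 914 a more negative one (8.59%), together 16.0%. Against small intestine, the counts were 727 (6.84%) and 819 (7.70%), together 14.5%. Which direction had more calls depended on the scaling and on 1 array: the counts against lung were 989 and 785 under quantile normalization, 987 and 801 with the 75th percentile over all probes and 930 and 663 without whole liver 2, and those against intestine were 904 and 632, 1052 and 568, and 864 and 593. With groups that were above background on no array held at their detection limit, 806 of the calls against lung and 753 of those against intestine still had a size in the same direction, and for the others no size can be given. Both contrasts share the liver arrays, and 156 genes were more positive and 350 more negative in both.

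Gzma, S100a4, Car4 and Ezr had a more positive difference between Trm and whole organ in liver than in both other organs. Gzma had a difference of 5.17 ± 1.10 in liver, -1.00 ± 1.06 in lung and 0.49 ± 1.06 in intestine. Whole lung and whole intestine had mean Gzma levels of -2.06 and 0.43, against -7.06 in whole liver. S100a4, a calcium-binding protein of memory T cells, was at least 13.5-fold higher in liver and differed by 0.25 ± 0.91 in lung and 0.44 ± 0.91 in intestine. Car4, a membrane carbonic anhydrase, differed by 5.09 ± 0.80, -1.69 ± 0.77 and -0.06 ± 0.77. Its mean levels were -1.42 in liver Trm, -3.42 in lung Trm and -0.82 in intestine Trm. In whole liver, lung and intestine they were -6.51, -1.73 and -0.76. Ezr, which links membrane to actin, was at least 16.6-fold higher in liver and differed by 1.17 ± 0.67 in lung and -1.66 ± 0.67 in intestine. The genes named for the most negative differences, Cyp2c54, Kng2, Serpind1 and Serpinf2, were above background on no array of either lung group or either intestine group, so that the size of their departure cannot be given. Over these 8 genes the adjusted p of the interaction ranged from 2.53e-09 to 0.00406 against lung and from 2.69e-11 to 0.034 against intestine (limma).

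**Figure D5:**
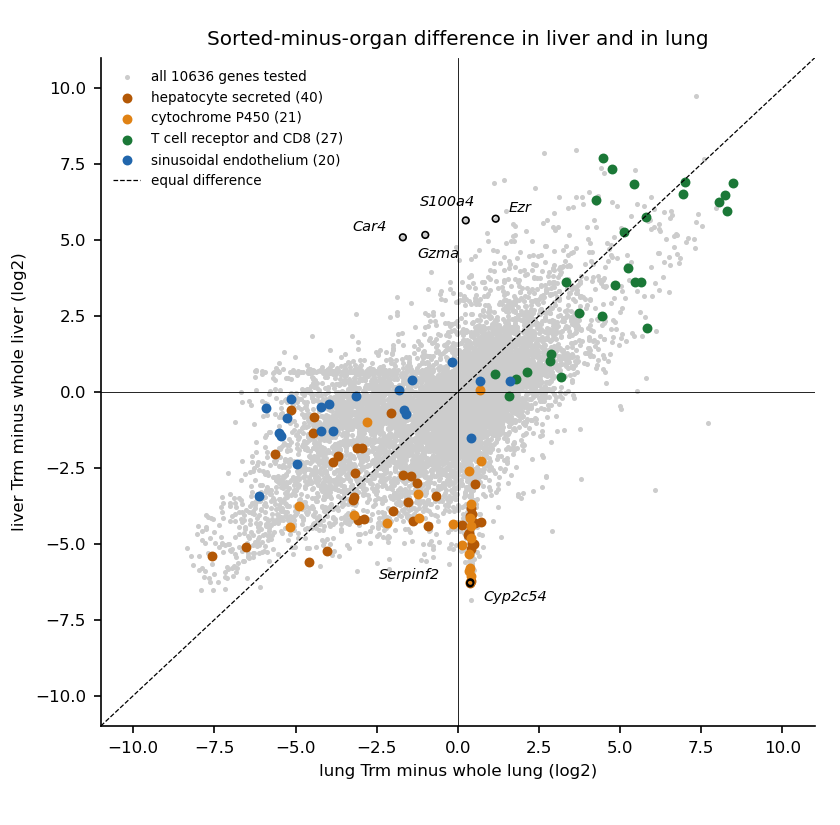
Liver Trm minus whole liver against lung Trm minus whole lung (log2 differences; grey points are the 10636 genes tested, coloured points 4 gene lists, the dashed line equal differences). Hepatocyte genes had negative liver differences, many with a lung difference near 0, and sinusoidal endothelium genes had a median fitted difference of -0.55 in liver and -3.91 in lung.

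Vascular, stromal and macrophage genes took part in these contrasts. Over all genes, 16.0% were called against lung and 14.5% against intestine. Of the 20 sinusoidal endothelium genes, 7 (35%) were more positive in liver than in lung and none more negative. Of these 7, 5 kept a size in that direction with undetected groups at their limit. Stab1, a scavenger receptor, differed by -1.45 ± 0.67 in liver and was above background on no lung Trm array, so that its liver difference was more positive by at least 2.38 on the log2 scale (adjusted p of the interaction = 0.00227, limma). Against intestine, 3 were more positive and 1 more negative, together 20% of the list and nearer the share over all genes. Of 14 stellate and fibroblast genes, 6 were more positive and 1 more negative against lung (50%), and none and 4 against intestine (28.6%). The Kupffer genes Cd5l, Clec4f and Vsig4 were more negative in liver than in both organs, with Cd5l at -2.64 ± 0.63 against lung and -3.67 ± 0.63 against intestine.

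The T cell receptor list departed from the other organs at about the share of all genes. Of the 27 T cell receptor genes, 1 (Cd2) was more positive and 2 (Cd27 and Sit1) more negative against lung, and none and 3 (among them Lat and Trat1) against intestine, 11.1% in each case beside 16.0% and 14.5% over all genes. For Klf2 and S1pr1 the liver difference was more positive than that of lung, by 3.17 ± 1.11 and by at least 1.91 (adjusted p = 0.0456 and 0.00794, limma), and not by the test than that of intestine. Of the 25 residency genes, 7 were more negative in liver than in intestine (Ctla4, Ahr, Bhlhe40, Cish, Xcl1, Cd101 and Chn2) and 1 (Cdh1) more positive. Ctla4 had a difference of -2.95 ± 0.64 in liver, -4.08 ± 0.62 in lung and 2.67 ± 0.62 in intestine.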

How the data were processed

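RNA of sorted cells and whole organs was amplified in 2 rounds, labelled with Cy3 and read on 1-colour Agilent arrays, 1 sample each. Per the file headers, the authors deposited scanner output of Feature Extraction 11.0.1.1, from which the background-subtracted intensity (processed signal) was used here, and the submitters' processing notes name Feature Extraction 10.7 and Partek. The authors also deposited a table of log2 values, which matched quantile normalization of the same arrays (largest median absolute difference 0.000764) and served as an alternative.

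Control and flagged spots were left out and spots of a probe averaged. Of 39429 probes, 27508 could be named (20886 genes) through RefSeq accessions, and 11921 could not. Each array's log2 intensity was centred on its 75th percentile over the 1342 probes well above background on all 35 arrays. Probes had to exceed background clearly in 3 or more arrays of any 1 group, and the brightest such probe stood for its gene. A linear model with 1 mean per group (limma 3.58.1, R 4.3.3) was fitted on all 35 arrays, and a gene was called at a Benjamini-Hochberg adjusted p below 0.05, two-sided. The scripts were tested on simulated data.

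The members and gene lists were chosen with earlier results of these data known. Genes were named by a rule: per direction the 8 called genes with the largest difference and bright in every array of the higher group, from each list up to 3 called members in its main direction and 1 in the other, per direction 4 genes of both interactions, and a fixed set of markers. These genes are outside that rule and were chosen after their values were seen: Ahr, Ahsg, Apoa2, Apoc1, Apoc3, Apoe, Bhlhe40, C3, Cd101, Cd27, Cd3d, Cd3g, Cdh1, Chn2, Cish, Cx3cr1, Cyp39a1, Cyp8b1, Dnaja1, Dnajb1, Fabp1, Hp, Hspa1a, Hspa8, Hsph1, Klrg1, Lat, Litaf, Rac2, Rbp4, Serpina1c, Sit1, Stab1, Tcf4, Trat1, Trf, Vsig4, Xcl1 and Zbtb7b. Alternatives covered the background correction, scaling, filters, probe summary, array weights, blocks, the samples fitted and each array left out. Results on a few genes are not reported here.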

Additional observations from a re-analysis of the deposited data

Results flagged for a closer look

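Single arrays stood far from the rest of the liver Trm group in 4 of 134 groups of values examined, where chance marks about 1 in 20. Clec4f had a level of -5.55 on liver Trm 1, against -4.75 to -4.48 on the others. Clec4g had a level of -4.15 on liver Trm 1, against -1.48 to -1.00. Gzma had a level of -4.03 on liver Trm 2, against -1.78 to -0.94. Liver Trm 3 had 12.2% of probes well above background, against 22.6% to 26.4%.

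The liver difference departed from that of another organ, by the test of the interaction, in 1704 genes against lung and in 1546 against small intestine. Against lung, the liver difference was larger by 6.78 for Car4 and 6.17 for Gzma on the log2 scale, and by at least 3.51 for S100a4 and 2.89 for Ezr, which were above background on no whole-liver array. It was more negative for Serpinf2, Cyp2c54, Kng2 and Serpind1 (adjusted p = 3.67e-08, 2.71e-07, 6.51e-08 and 2.53e-09, limma), with no size given because no lung array was above background for them.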

How the results depend on the processing

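The count of 3431 called genes ranged from 3129 to 3608 over the other settings that left out no liver array, except for array weights (gene-by-gene method), which gave 6074, and 5693 and 3885 for the interactions with lung and intestine. These weights gave whole liver 3 a weight of 7.05 and whole liver 2 one of 0.142. Requiring signal on 3 arrays of a liver group, which tests fewer genes, left 933 and 931 interaction calls. Leaving out 1 array gave 2881 to 3409 calls, and leaving out whole liver 2 and liver Trm 3 together, chosen after seeing the data, gave 3094 (41.7% higher). The share of detected probes differed by -17.9 percentage points (exact permutation p = 0.0357, two-sided, the smallest this design allows). It ranged from -24.1 to -5.52 without 1 array, the latter without whole liver 2, with exact permutation p of 0.0571 to 0.0952, the smallest those designs allow. Ncr1 turned from -0.27 to 0.14 with the 75th percentile over all probes, 0.025 with normexp, 0.55 with array weights, and 0.75 without both doubted arrays, and ranged from -1.03 (without whole liver 1) to 0.78 (without whole liver 2) with 1 array left out; the cause was not tested. With the replicate number as a block, 3243 genes were called. Deviations of same-numbered Trm and whole-liver arrays had correlations of 0.100, -0.086 and -0.123. These cannot tell whether such arrays share an animal, and no pairing was used in the main fit. Of 125 named genes called, 99 kept their call under every alternative in which they were tested, and 26 lost it under at least 1. Klrd1, among the 99, was tested in 20 alternatives, whereas most genes were tested in 22. All 125 kept their direction where tested.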
